A study of Mus musculus with 10 samples.

Results

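Oxidative phosphorylation genes encode the respiratory chain of the inner mitochondrial membrane, and their regulatory regions were followed here by ATAC-seq, an assay of open chromatin by insertion of the Tn5 transposase. The regions were taken by position and name alone: a peak was a member when its nearest protein-coding gene body lay within 5 kb and had a symbol that starts with Ndufa, Ndufb, Ndufc, Ndufs, Ndufv, Sdha, Sdhb, Sdhc, Sdhd, Uqcr, Cox4 to Cox8 or Atp5. This gave 100 of 36262 peaks, in 90 of the 100 annotated protein-coding genes with these symbols. The 10 genes without a peak were Atp5l, Cox4i2, Cox6a2, Cox6b2, Cox7b2, Cox8b, Cox8c, Ndufb4b, Ndufb4c and Uqcr11. The symbols also admit assembly factors (Ndufaf and Sdhaf genes, 13 peaks in 12 genes), which help to build the complexes and are not subunits of them.

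Complexes I and II pass electrons from NADH and from succinate to ubiquinone, complex III passes them on to cytochrome c, and complex IV (cytochrome c oxidase) passes them to oxygen. Complexes I, III and IV pump protons, and ATP synthase uses the gradient to make ATP. Most subunits come from nuclear genes that nearly every cell transcribes, from promoters known for binding sites of the nuclear respiratory factor NRF1, ETS family factors such as GABP, YY1 and SP factors. Some subunits of complex IV also have isoforms with tissue-restricted expression. Innate lymphoid cells (ILCs) are lymphocytes of tissues that lack rearranged antigen receptors. RORgt is the nuclear receptor that defines group 3 ILCs, T-bet (Tbx21) is a factor of type 1 lymphocytes, and RORa (Rora) is a receptor related to RORgt.

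The 10 libraries came from C57BL/6 mice fed tamoxifen for several weeks, whose small intestinal lamina propria was sorted for ILCs. All mice carried Id2creERT2, which expresses a Cre recombinase under Id2 control that tamoxifen activates, and the red fluorescent reporter tdRFP. Control (n = 3) had no floxed allele, RORgt-KO (n = 2) had floxed RORgt, RORgt-Tbet-KO (n = 2) had floxed RORgt and floxed Tbx21, and RORgt-RORa-KO (n = 3) had floxed RORgt and floxed Rora. Mice were used singly or as pools of 2 or 3 for a biological replicate, and neither their age and sex nor the sorted surface markers were given in the sources. Cre acts in cells that express Id2, which all ILC types do, so a library can hold several of them. In such bulk libraries fewer cells of a type and less open chromatin per cell cannot be told apart.

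Reads in peaks ranged from 2271585 to 5047436 per library, and both RORgt-Tbet-KO libraries (4580787 and 5047436) were deeper than any of Control or RORgt-KO. The median member peak held 74 to 162 reads, and the members together held 0.390% to 0.426% of the reads in each library. All 7 ILC marker genes examined had peaks. Among markers of other cells, 4 of 5 T cell, 3 of 5 B cell, 1 of 5 myeloid, 3 of 4 epithelial and 2 of 4 stromal or endothelial genes had a peak. Genes without one included Cd3g (the only T cell gene without), Csf1r, Lyz2, Vil1 and Col1a1. The B cell list summed to 238 to 266 RPM (reads scaled to library size) in Control and to 133 to 195 in the knockouts, and the stromal and endothelial list to 167 to 177 in Control and 249 to 253 in RORgt-Tbet-KO. The epithelial list went from 83.7 to 91.9 RPM in Control to 120 to 132 in RORgt-Tbet-KO, the ILC list from 1232 to 1249 to 1474 to 1504 there, and the T cell list from 80.2 to 84.2 in Control to 106 to 121 in RORgt-RORa-KO. The single myeloid peak held 4.16 to 7.15 RPM in Control, up to 14.5 in RORgt-KO and 7.48 or more in RORgt-RORa-KO, with both groups above all controls. The part of these differences in the results below was not tested. None of the 14 Rora peaks was lower in RORgt-RORa-KO (3 were higher) and neither of the 2 Tbx21 peaks was lower in RORgt-Tbet-KO (1 was higher). Which exons were floxed was not stated, so these peaks do not check the deletions. In 5 libraries (Control replicates 1 and 2 and 1 library of each knockout group) 4 peaks of chromosome Y were empty, and in the other 5 they held 183 to 390 reads; the 3 member peaks on chromosome X passed no test.

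Promoter sequences are shown for 6 member genes: the 3 whose gene-end peaks had the smallest adjusted p in any comparison (Cox7a1, Ndufv1 and Atp5g1) and the 3 with the highest level per peak, not per kilobase, at a gene end (Atp5j, Uqcrh and Ndufa13). Each run is the 250 bases before an annotated start (RefSeq, GRCm38.p6), read 5′ to 3′ on the strand of the gene. Capitals mark exact matches to NRF1 (GCATGCG), ETS (CCGGAAG), YY1 (GATGGCG) or SP/KLF (GGGCGGG) motifs on either strand; the ROR element core (TAGGTCA) and the T-box core (AGGTGTG) were searched too and matched none of these windows.
Cox7a1 (chr7:30183921-30184170, plus strand): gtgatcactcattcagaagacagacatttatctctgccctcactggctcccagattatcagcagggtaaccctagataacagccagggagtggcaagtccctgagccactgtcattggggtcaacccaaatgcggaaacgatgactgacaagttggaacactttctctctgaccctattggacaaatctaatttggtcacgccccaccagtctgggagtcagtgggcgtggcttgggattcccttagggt
Ndufv1 (chr19:4012756-4013005, minus strand): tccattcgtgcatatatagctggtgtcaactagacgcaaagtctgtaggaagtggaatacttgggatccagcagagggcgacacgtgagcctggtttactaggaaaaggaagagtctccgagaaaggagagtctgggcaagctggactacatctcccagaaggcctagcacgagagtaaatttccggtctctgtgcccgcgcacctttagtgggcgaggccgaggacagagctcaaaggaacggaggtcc
Atp5g1 (chr11:96075632-96075881, minus strand): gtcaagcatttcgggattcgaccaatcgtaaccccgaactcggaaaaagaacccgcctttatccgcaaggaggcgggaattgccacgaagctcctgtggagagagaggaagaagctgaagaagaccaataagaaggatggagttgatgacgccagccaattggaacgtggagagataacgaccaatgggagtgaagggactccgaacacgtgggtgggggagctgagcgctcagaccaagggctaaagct
Atp5j, first start (chr16:84834977-84835226, minus strand): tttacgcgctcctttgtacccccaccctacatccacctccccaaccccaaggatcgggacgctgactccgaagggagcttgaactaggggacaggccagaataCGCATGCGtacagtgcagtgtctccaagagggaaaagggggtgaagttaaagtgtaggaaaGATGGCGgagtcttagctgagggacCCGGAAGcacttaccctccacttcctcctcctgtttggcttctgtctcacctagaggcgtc
Atp5j, second start (chr16:84835626-84835875, minus strand): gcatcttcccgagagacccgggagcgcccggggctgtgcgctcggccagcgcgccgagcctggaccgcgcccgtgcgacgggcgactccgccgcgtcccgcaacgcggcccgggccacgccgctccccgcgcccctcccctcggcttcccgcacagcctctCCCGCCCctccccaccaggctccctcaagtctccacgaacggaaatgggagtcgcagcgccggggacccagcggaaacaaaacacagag
Uqcrh (chr4:116075071-116075320, minus strand): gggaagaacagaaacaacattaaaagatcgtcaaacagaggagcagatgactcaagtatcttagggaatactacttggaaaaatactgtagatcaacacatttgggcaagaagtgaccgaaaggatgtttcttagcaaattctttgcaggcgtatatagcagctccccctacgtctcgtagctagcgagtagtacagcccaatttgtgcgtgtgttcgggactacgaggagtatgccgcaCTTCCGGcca
Ndufa13 (chr8:69902021-69902270, minus strand): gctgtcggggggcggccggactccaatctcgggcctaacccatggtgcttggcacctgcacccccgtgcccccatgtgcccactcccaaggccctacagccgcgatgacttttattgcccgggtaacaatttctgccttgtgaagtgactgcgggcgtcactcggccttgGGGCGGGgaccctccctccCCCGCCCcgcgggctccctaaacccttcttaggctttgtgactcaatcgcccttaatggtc
Positions count back from the start, with -1 the base just before it and the first base of the match on the printed strand given. The first Atp5j promoter held NRF1 matches at -147 and -146, which are 1 palindromic stretch read on both strands, a YY1 match at -86 and an ETS match at -61. The second held 1 SP/KLF match at -89. Both lie in a single peak, which also covers the start of Gabpa, the gene of an ETS family factor that binds such motifs. Uqcrh had an ETS match at -10, and Ndufa13 had SP/KLF matches at -80 and -61. The windows of Cox7a1, Ndufv1 and Atp5g1, the 3 genes whose promoters changed with the smallest p, held none of the 6 motifs. No match says only that these letters are not in the window.

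Among member genes, 76 had promoters in the RefSeq table, with 81 windows of 300 bases (250 before to 50 after the start); 79 of these starts lay in a peak. The NRF1 motif was in 13.9% of the 79 promoters, the YY1 motif in 15.2% and the ETS motif in 25.3%. Over the 9729 protein-coding promoters whose start lay in a peak the shares were 7.31%, 7.31% and 21.3%, and 3.58%, 3.49% and 8.86% over all 32851 promoters. The SP/KLF motif went the other way, at 36.7% of member promoters against 51.7% of those with the start in a peak and 25.6% of all. The ROR element was in 5.06% (4 promoters; 1.74% and 2.61%) and the T-box core in 1.27% (1 promoter; 4.14% and 5.84%). The median GC content was 59.0% for the members and 62.0% for the promoters in peaks. These shares describe letters and no test was made of them.

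**Figure D1:**
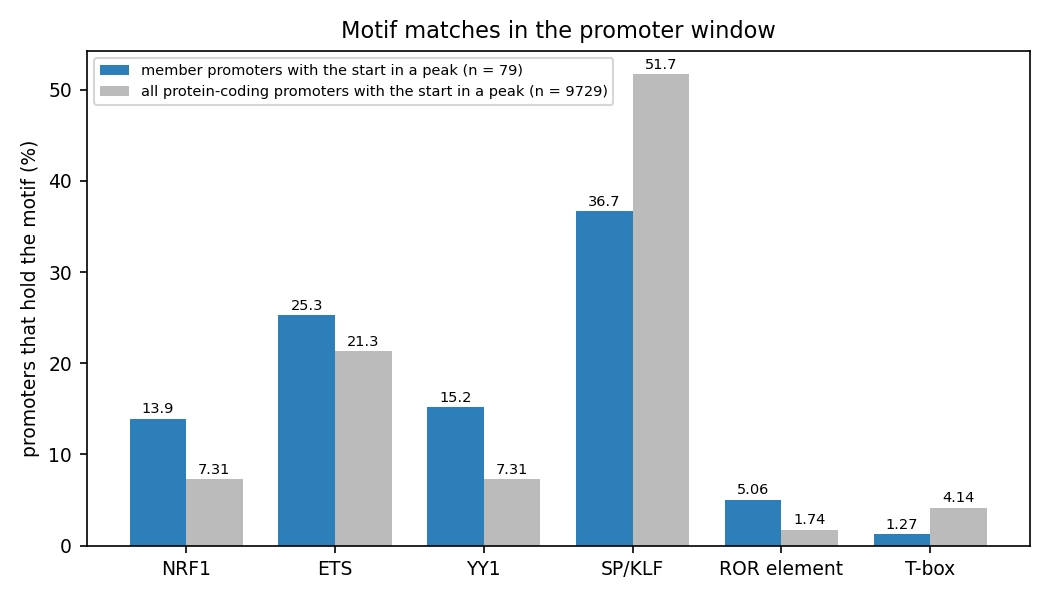
Share of promoters (y axis, percent) that hold each motif (x axis) within 300 bases around the start, for the 79 member promoters and the 9729 protein-coding promoters whose start lay in a peak. Members held NRF1 (13.9%) and YY1 (15.2%) motifs at higher shares than the 7.31% of the wider set, and SP/KLF motifs at a lower share (36.7% against 51.7%).

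The members were mostly promoter peaks. Of the 100 peaks, 85 lay within 1 kb of an end of the gene, 10 lay inside the gene and 5 lay outside it within 5 kb, whereas 29.8% of all peaks (10785 of 36251 off chromosome Y) lay within 1 kb of a gene end. Where RefSeq gave the start of the gene, 75 of 85 peaks covered it. Many of these promoters were shared: 36 member peaks lay equally near a second protein-coding gene, as 4.34% of all peaks and 13.2% of gene-end peaks did, and 26 covered the starts of at least 2 genes. Accessibility at such a peak cannot be assigned to one of the genes. Just inside the 5 kb limit lay a peak 4998 bp from Ndufa9 (mean log2 level 6.44), and just outside it a peak 6573 bp from Ndufv1 (4.05).

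Values are scaled read counts on the authors' log2 scale, and levels of different peaks are compared per kilobase of peak. The median member peak stood at 7.43 on the log2 scale per kilobase, against 7.33 for all gene-end peaks and 6.99 for all peaks, and at the 68.0th percentile of all peaks. By role the medians per kilobase were 7.42 for 42 complex I peaks, 7.43 for 5 complex II peaks, 7.68 for 9 complex III peaks, 7.06 for 12 complex IV peaks, 7.38 for 17 ATP synthase peaks and 7.57 for 13 assembly factor peaks. Roles follow the symbols, so Ndufa4 is counted with complex I and Cox7a2l with complex IV. These medians lay close together beside the spread within each role, and the cytochrome c oxidase peaks were the lowest.

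**Figure D2:**
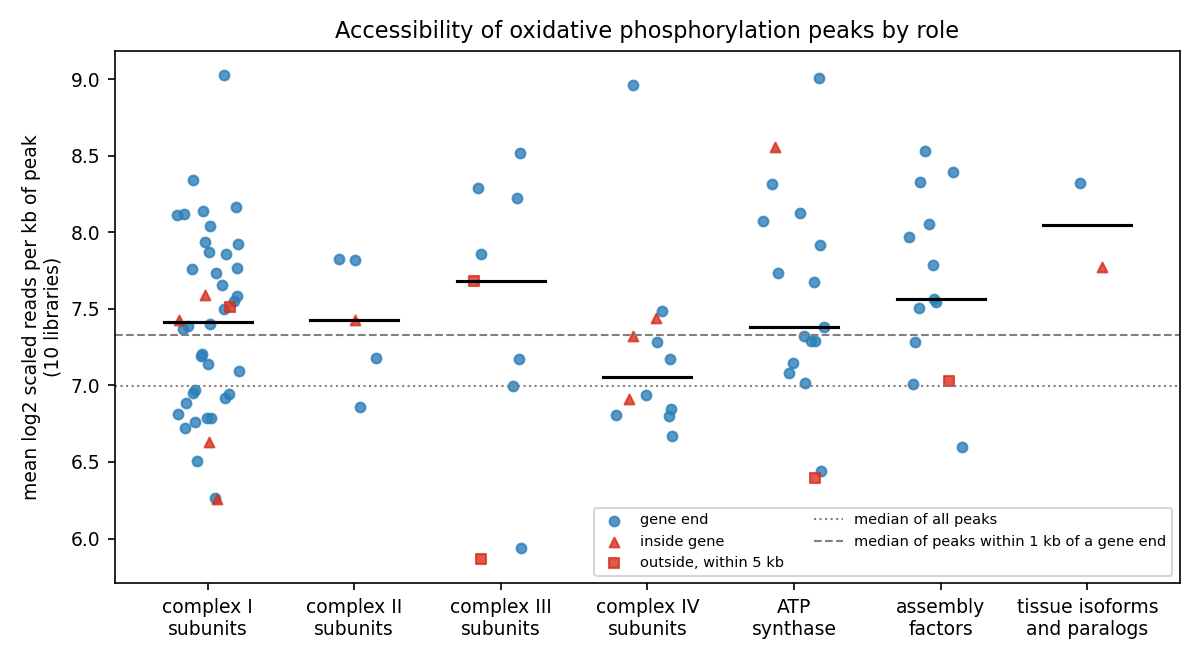
Mean log2 scaled reads per kilobase of peak over the 10 libraries (y axis) for each member peak, by role (x axis). Circles are gene-end peaks, triangles peaks inside genes and squares peaks outside, black bars are medians (7.06 for complex IV to 7.68 for complex III among the 5 complexes), and the lines mark gene-end peaks (7.33) and all peaks (6.99).

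The highest and lowest peaks of each role show the range, given here as log2 levels per peak. Atp5j, which encodes coupling factor 6 of the ATP synthase stalk, had the highest level per peak at 9.61 (chr16:84834528-84836040), with libraries from 9.43 to 9.85. It was followed by Uqcrh, the hinge protein of complex III (9.22, chr4:116074914-116076912), and Ndufa13, a complex I subunit (9.15, chr8:69901426-69903470). Sdhaf1, an assembly factor of complex II, stood at 9.09, Cox7c of complex IV at 8.76 and the promoter of Sdha, the flavoprotein of complex II, at 7.90. Per kilobase, which allows for the length of the peaks, the promoters of Ndufa5 (9.03) and Atp5j (9.01) lay highest and Uqcrh (8.22) and Ndufa13 (8.12) lower. The lowest level per peak in each role was 3.15 near Sdhaf2, 4.16 near Atp5mpl, 4.52 near Uqcr10, 4.62 inside Ndufv2, 5.03 inside Cox6a1 and 5.87 inside Sdha. All 6 lay away from the gene end. The Sdhaf2 peak held 2 to 19 reads per library and the Atp5mpl peak 5 to 37, so that differences there were hardly detectable at this depth.

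The isoform genes with tissue-restricted expression mostly had no peak. Of 8 such genes these were 6: Cox4i2, Cox6a2, Cox6b2, Cox7b2, Cox8b and Cox8c. Atp5l and Uqcr11, which are broadly used subunits, had none either, so a missing peak does not show that a gene is closed. The others were Ndufa4l2, a paralog of Ndufa4 known as a hypoxia response gene, and Cox7a1, the isoform of a complex IV subunit known from heart and skeletal muscle. The Ndufa4l2 peak (chr10:127512805-127513151, inside the gene) ranged from 5.90 to 6.57 over all libraries and passed no test (F test adjusted p = 0.98). Cox7a1 had an open promoter peak, at the 91.5th percentile per kilobase, and is described with the comparisons below.

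The median log2 level over the 100 peaks was 7.04 ± 0.08 (SD, n = 3 libraries) in Control, 7.09 ± 0.10 (n = 2) in RORgt-KO, 7.11 ± 0.03 (n = 2) in RORgt-Tbet-KO and 7.08 ± 0.07 (n = 3) in RORgt-RORa-KO, and the libraries of the groups overlapped. Medians within some roles did not overlap with Control. For ATP synthase the Control libraries lay at 6.91 to 7.10, RORgt-KO at 7.18 to 7.19 and RORgt-Tbet-KO at 7.25 to 7.29. For complex I Control lay at 6.89 to 6.98, RORgt-Tbet-KO at 7.03 to 7.07 and RORgt-RORa-KO at 7.02 to 7.07, and for complex IV Control lay at 6.07 to 6.61 and RORgt-RORa-KO at 6.67 to 6.76. The pair of isoform peaks had a median of 6.91 to 7.32 in Control, 6.70 to 6.89 in RORgt-KO and 6.64 to 6.77 in RORgt-RORa-KO. In all other pairs of role and knockout group the libraries overlapped with Control. These include complexes II and III and the assembly factors in every knockout group. The library medians over all gene-end peaks overlapped too, at 6.96 to 7.09 in Control and 6.91 to 7.12 in the knockouts. The role medians were not tested. Over the 42 complex I peaks the median difference from Control was 0.02 for RORgt-Tbet-KO (22 positive, 20 negative). For RORgt-RORa-KO it was -0.05 (20 positive, 22 negative), so the higher complex I medians came without a general rise. The median ATP synthase difference was 0.10 for RORgt-KO (12 positive, 5 negative) and 0.33 for RORgt-Tbet-KO (11 and 6). That of complex IV was 0.22 for RORgt-RORa-KO (8 and 4). Changes were counted with limma, adjusted over all 36251 peaks at 0.05. In its F test 11 of 100 member peaks differed among the groups, against 30.7% of all peaks and 12.7% of gene-end peaks. This count was 4 to 6 without Control replicate 1 or 2, RORgt-RORa-KO replicate 1 or either RORgt-Tbet-KO library. In at least 1 of the 6 comparisons 22 peaks in 22 genes passed and 78 did not, against 39.7% of all peaks and 21.2% of gene-end peaks. All the calls came from comparisons with Control, which share the same 3 control libraries.

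The share of members that changed was near that of gene-end peaks and below that of all peaks. In RORgt-KO 2 members changed (1 higher, 1 lower), against 12.3% of all peaks (5.19% higher and 7.12% lower) and 3.1% of gene-end peaks (1.58% higher and 1.52% lower). In RORgt-Tbet-KO 11 changed (9 higher, 2 lower), against 22.6% (11.3% higher and 11.3% lower) and 12.2% (6.11% higher and 6.05% lower). In RORgt-RORa-KO 16 changed (8 higher, 8 lower), against 31.2% (15.1% higher and 16.1% lower) and 14.9% (5.78% higher and 9.1% lower). Among the 85 gene-end members 1, 10 and 12 changed. The median member difference was 0.04, 0.02 and -0.02 on the log2 scale, against 0.02, 0.01 and 0.02 over all peaks, and the median size of a difference was 0.15, 0.27 and 0.25, against 0.34, 0.44 and 0.44 over all peaks and 0.19, 0.28 and 0.25 over gene-end peaks.

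**Figure D3:**
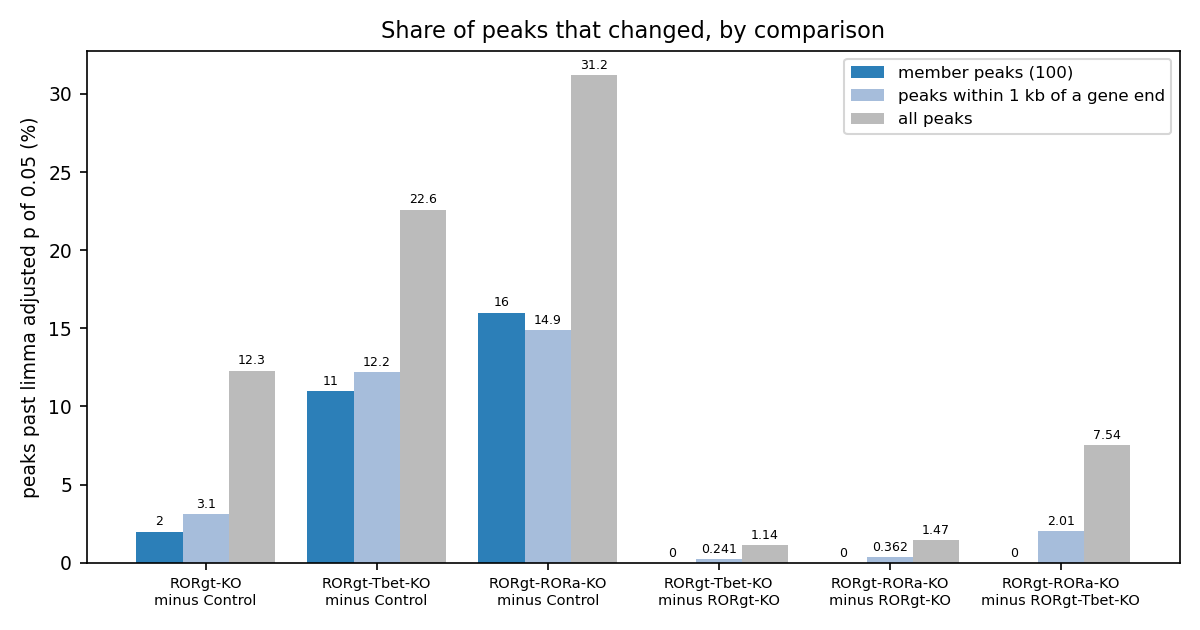
Share of peaks past limma's adjusted p of 0.05 (y axis, percent) in each of the 6 comparisons (x axis), for member peaks, gene-end peaks and all peaks. Members stood near gene-end peaks (11.0% and 12.2% in RORgt-Tbet-KO, 16.0% and 14.9% in RORgt-RORa-KO) and below all peaks (22.6% and 31.2%).

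No member peak passed the test between knockout groups. Between RORgt-Tbet-KO and RORgt-KO 0 of 100 passed limma's adjusted test (7 at an unadjusted p under 0.05; 1.14% of all peaks passed, 0.179% higher and 0.965% lower, and 0.241% of gene-end peaks), between RORgt-RORa-KO and RORgt-KO 0 (3 unadjusted; 1.47%, with 0.331% higher and 1.14% lower, and 0.362% of gene-end peaks), and between RORgt-RORa-KO and RORgt-Tbet-KO 0 (9 unadjusted; 7.54%, with 3.82% higher and 3.72% lower, and 2.01% of gene-end peaks). With limma voom on recovered reads the first and the last of these comparisons gave 1 higher peak each. On the deposited values the first gave 1 higher peak without RORgt-RORa-KO replicate 2, the second 1 lower without replicate 1 of that group, and the last 1 lower without replicate 1 and 4 lower without replicate 3. The median 95% interval of a difference between knockouts reached 0.46 to 0.50 on the log2 scale to either side, before adjustment over peaks. Over all peaks the smallest differences that passed were 0.77, 0.67 and 0.53 in these comparisons in the order given. Smaller differences passed at no peak, so the absence of member calls does not show that these peaks were equal. In RORgt-KO against Control the interval reached 0.46, and 7 members had an unadjusted p under 0.05.

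**Figure D4:**
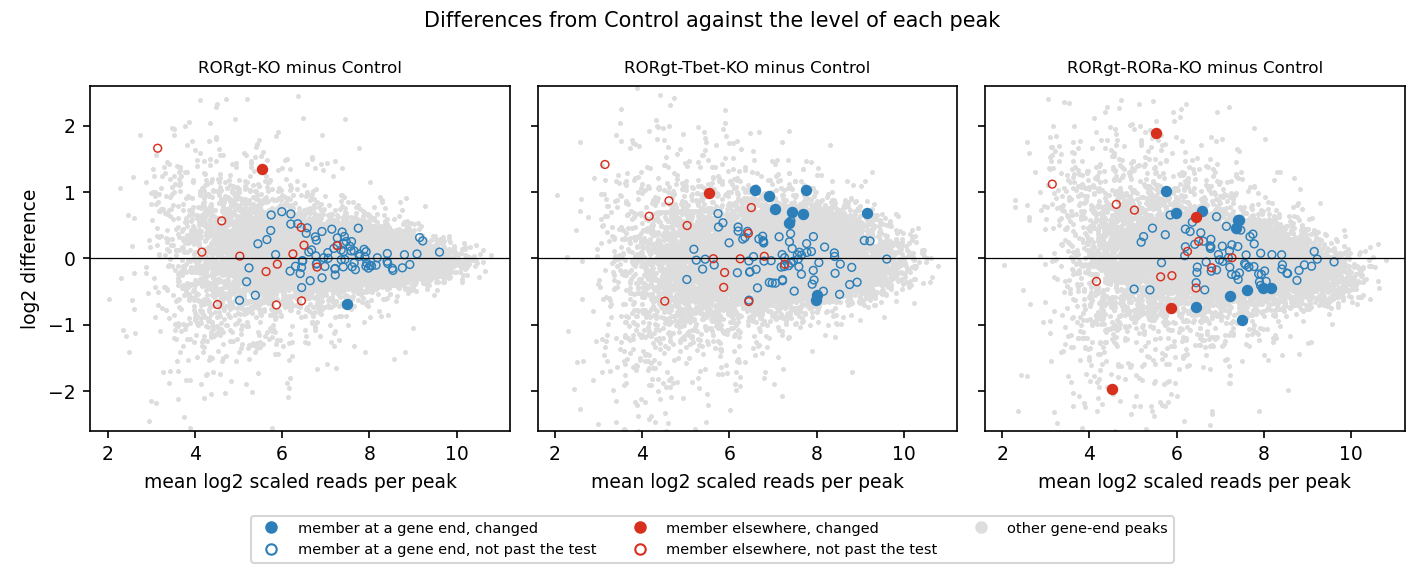
Log2 difference from Control (y axis) against mean log2 level (x axis) for member peaks over all gene-end peaks (grey; 9, 24 and 37 of these lie beyond the axis), in panels for RORgt-KO, then RORgt-Tbet-KO, then RORgt-RORa-KO. Filled points passed limma's test; the largest differences that passed lay at peaks away from gene ends, 1.89 at Ndufa10 and -1.97 near Uqcr10 in RORgt-RORa-KO.

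Ndufa10, which encodes an accessory subunit of complex I, was the member that changed in every knockout group. The peak (chr1:92468847-92469314, inside the gene, 4444 bp from its start) stood at 3.69, 5.13 and 4.68 (Control), 5.81 and 5.90 (RORgt-KO), 5.47 and 5.50 (RORgt-Tbet-KO), then 6.39, 6.60 and 6.16 (RORgt-RORa-KO). Every knockout library lay above every control, and the RORgt-RORa-KO libraries lay highest. The peak rose by 1.35 (SE 0.35, 2.56-fold, limma adjusted p = 0.0096) in RORgt-KO, by 0.98 (SE 0.35, adjusted p = 0.042) in RORgt-Tbet-KO and by 1.89 (SE 0.31, 3.70-fold, adjusted p = 3.1e-05) in RORgt-RORa-KO. The promoter peak of the same gene (chr1:92473512-92474458) did not pass, with a mean of 6.94 in Control and 6.61, 6.50 and 6.47 in the knockouts in that order. The call in RORgt-RORa-KO held whichever library was left out (highest adjusted p = 0.00042). In RORgt-KO the call was lost without Control replicate 1 (0.95, adjusted p = 0.059) and without either RORgt-KO library (1.40 and 1.31, adjusted p = 0.081 and 0.10). In RORgt-Tbet-KO the difference fell to 0.58 without Control replicate 1 (adjusted p = 0.21). There the call was also lost, at a difference of 0.97 to 1.00, without either RORgt-Tbet-KO library (adjusted p = 0.19 and 0.21), either RORgt-KO library (adjusted p = 0.056 each) or RORgt-RORa-KO replicate 1 (adjusted p = 0.056).

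Cox7a1, the complex IV isoform known from muscle, went the other way at its promoter. The peak (chr7:30183878-30184437) covers the start whose upstream sequence is printed above. It stood at 7.92, 8.24 and 7.85 (Control), 7.20 and 7.42 (RORgt-KO), 7.56 and 7.45 (RORgt-Tbet-KO), then 7.13, 7.03 and 7.06 (RORgt-RORa-KO). All 7 knockout libraries lay below all 3 controls. The peak fell by 0.69 (SE 0.19, 1.61-fold, limma adjusted p = 0.018) in RORgt-KO and differed by -0.93 (SE 0.17, 1.90-fold, adjusted p = 0.00014) in RORgt-RORa-KO, while the difference of -0.49 (SE 0.19, adjusted p = 0.068) in RORgt-Tbet-KO did not pass. The call in RORgt-RORa-KO held whichever library was left out (highest adjusted p = 0.0023), and that in RORgt-KO was lost without Control replicate 2 (adjusted p = 0.089) or without either RORgt-KO library (adjusted p = 0.22 and 0.064). Cox7a1 and Ndufa10 were the only 2 members that changed in RORgt-KO. The count there was 0 without either RORgt-KO library, and without Control replicate 3 it was 3 higher and 1 lower.

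In RORgt-Tbet-KO, where 11.3% of all peaks were higher and 11.3% lower, complex I contributed 5 higher peaks and 0 lower of 42, ATP synthase 2 higher and 1 lower of 17, assembly factors 1 higher and 1 lower of 13, and complex IV 1 higher of 12. No peak of complexes II (5) or III (9) passed. Ndufv1 encodes the complex I subunit that binds NADH, and its promoter peak (chr19:4012387-4013175) stood at 5.83, 5.90 and 6.46 (Control), 6.69 and 6.35 (RORgt-KO), 7.05 and 7.14 (RORgt-Tbet-KO), then 6.79, 6.55 and 7.01 (RORgt-RORa-KO). It rose by 1.03 (SE 0.25, 2.05-fold, limma adjusted p = 0.0031) in RORgt-Tbet-KO and by 0.72 (SE 0.22, adjusted p = 0.013) in RORgt-RORa-KO, and both double knockouts lay above all controls. Atp5g1 encodes a form of the ATP synthase c subunit, which makes up the rotating ring. Its promoter peak, at chr11:96075454-96076251, stood at 7.30, 6.91 and 7.81 (Control), 7.91 and 7.68 (RORgt-KO), 8.51 and 8.22 (RORgt-Tbet-KO), then 7.90, 7.05 and 8.17 (RORgt-RORa-KO). It rose by 1.03 (SE 0.26, 2.04-fold, adjusted p = 0.0043) in RORgt-Tbet-KO, whereas the RORgt-RORa-KO libraries overlapped the controls (0.37, SE 0.23, adjusted p = 0.24). When 1 RORgt-Tbet-KO library was left out, Ndufv1 (without replicate 2, adjusted p = 0.059) and Atp5g1 (without replicate 1, adjusted p = 0.088) did not pass; the Ndufv1 difference in RORgt-RORa-KO did not pass without Control replicate 1 or 2 or RORgt-RORa-KO replicate 3 (adjusted p = 0.067, 0.053 and 0.068).

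Cox8a encodes a small membrane subunit of complex IV. Its peak (chr19:7217254-7217927) was the only one of the Cox4 to Cox8 members, apart from the isoform Cox7a1, that changed in a comparison. Control libraries stood at 6.02, 6.15 and 7.20 and RORgt-Tbet-KO at 7.41 and 7.37, a rise of 0.94 (SE 0.28, limma adjusted p = 0.015). The controls were far apart here, with replicate 3 close to the knockouts. Further complex I promoters rose in this group, of which Ndufs8 encodes an iron-sulfur subunit and Ndufa6 and Ndufa13 encode accessory subunits. Ndufs8 went from 6.83 ± 0.08 (SD, n = 3) in Control to 7.57 ± 0.18 (n = 2; difference 0.74, SE 0.22, adjusted p = 0.015), Ndufa6 from 7.48 ± 0.26 to 8.15 ± 0.12 (0.66, SE 0.21, adjusted p = 0.021) and Ndufa13 from 8.92 ± 0.24 to 9.60 ± 0.02 (0.68, SE 0.22, adjusted p = 0.028). In RORgt-RORa-KO these 3 promoters stood at 7.01 ± 0.29, 7.81 ± 0.22 and 9.03 ± 0.61 (n = 3) and did not pass. All 4 of these calls were lost without RORgt-Tbet-KO replicate 1 (adjusted p = 0.11, 0.21, 0.089 and 0.13 for Cox8a, Ndufs8, Ndufa6 and Ndufa13) and without replicate 2 (adjusted p = 0.094, 0.060, 0.21 and 0.15), Cox8a and Ndufa13 also without Control replicate 1 or 2 (adjusted p = 0.085 and 0.071, and 0.072 and 0.12), and Ndufa6 without Control replicate 2 (adjusted p = 0.10).

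The calls in RORgt-Tbet-KO stood beside a difference in depth, since both libraries of the group were deeper than all controls. Over the 9 peaks that rose, the mean log2 level was 6.69, 6.76 and 7.13 (Control), 7.32 and 7.14 (RORgt-KO), 7.67 and 7.66 (RORgt-Tbet-KO), then 7.53, 7.15 and 7.65 (RORgt-RORa-KO). Over the 2 that fell it was 8.39, 8.20 and 8.12 (Control), 8.23 and 7.99 (RORgt-KO), 7.67 and 7.62 (RORgt-Tbet-KO), then 7.87, 8.03 and 7.86 (RORgt-RORa-KO). The choice of these peaks fixes the place of Control and RORgt-Tbet-KO in both lists. The part of depth in these calls was not tested. With limma voom on recovered reads the count was 10 higher and 8 lower, and after quantile normalization 8 higher and 5 lower. Without either RORgt-Tbet-KO library it fell to 1 higher and 0 lower, without Control replicate 1 or 2 to 4 higher and 1 lower, and it was 11 higher and 7 lower without Control replicate 3 or RORgt-RORa-KO replicate 2, and 10 higher and 5 lower without RORgt-RORa-KO replicate 3.

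In RORgt-RORa-KO, where 15.1% of all peaks were higher and 16.1% lower, the member calls were spread over the roles in both directions. Complex I had 2 higher and 2 lower peaks of 42, complex II 1 lower of 5, complex III 1 higher and 1 lower of 9, ATP synthase 3 higher and 1 lower of 17, assembly factors 2 higher and 2 lower of 13, and Cox7a1 was the lower isoform peak. None of the 12 peaks counted under complex IV passed. With limma voom on recovered reads the count was 13 higher and 6 lower. It fell to 1 higher and 3 lower without Control replicate 1, 3 and 4 without Control replicate 2, 5 and 5 without RORgt-RORa-KO replicate 1, and 2 and 7 without RORgt-RORa-KO replicate 3. The lower count was also 5 without RORgt-KO replicate 1 or either RORgt-Tbet-KO library.

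The largest fall among all members was near Uqcr10, a small subunit of complex III. The peak (chr11:4697765-4698157, 3811 bp outside the gene) stood at 5.28, 5.18 and 5.68 (Control), 4.81 and 4.56 (RORgt-KO), 4.77 and 4.70 (RORgt-Tbet-KO), then 4.81, 2.40 and 3.01 (RORgt-RORa-KO). It fell by 1.97 (SE 0.47, 3.92-fold, limma adjusted p = 0.0017) in RORgt-RORa-KO; the 3 libraries of that group were far apart (3.41 ± 1.25, SD), and the peak held 20, 3 and 9 reads in them. The call held whichever library was left out (highest adjusted p = 0.011), and the difference was -2.67 without RORgt-RORa-KO replicate 1. The promoter peak of the gene (chr11:4703998-4704849, shared with Zmat5) stood at 6.57 in Control and 6.76 in RORgt-RORa-KO and did not pass. Uqcrc1, a core protein of complex III, had a promoter peak (chr9:108936363-108937239) at 4.77, 4.90 and 6.00 in Control and 6.44, 6.34 and 5.93 in RORgt-RORa-KO. It rose by 1.02 (SE 0.30, 2.02-fold, adjusted p = 0.0090), but Control replicate 3 lay above RORgt-RORa-KO replicate 3, and without Control replicate 1 the call was lost (0.79, adjusted p = 0.062).

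Of 5 complex II peaks 1 changed, and so did the promoter of the assembly factor Sdhaf4, both lower in RORgt-RORa-KO. Over the 5 complex II peaks the difference in that group was positive at 2 and negative at 3. The peak inside Sdha, the subunit that oxidises succinate (chr13:74341092-74341430, 8810 bp from the start), stood at 6.37, 6.42 and 6.17 in Control and 5.69, 5.68 and 5.37 in RORgt-RORa-KO, a fall of 0.74 (SE 0.25, limma adjusted p = 0.022). It stood at 5.68 and 5.56 in RORgt-KO (difference -0.70, adjusted p = 0.099) and 6.02 and 5.75 in RORgt-Tbet-KO (-0.44, adjusted p = 0.27). The Sdha promoter peak, shared with Ccdc127, stood at 8.08 in Control and 7.72 in RORgt-RORa-KO and did not pass. Sdhaf4, which helps to assemble the Sdha subunit, fell at its promoter by 0.74 (SE 0.22, adjusted p = 0.010), from 6.80, 7.18 and 6.68 in Control to 6.07, 6.28 and 6.09. Its other knockout libraries lay between 6.12 and 6.63, below all controls, and did not pass. The Sdhaf4 call was lost without Control replicate 2 (adjusted p = 0.072), and that of Sdha without Control replicate 1 or 2 or RORgt-RORa-KO replicate 3 (adjusted p = 0.062, 0.070 and 0.078).

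ATP synthase peaks changed in both directions. Atp5b, the catalytic subunit, rose in both double knockouts, from 6.93, 7.22 and 7.10 in Control to 7.57 and 7.67 in RORgt-Tbet-KO (difference 0.54, SE 0.20, limma adjusted p = 0.049) and 7.68, 7.36 and 7.60 in RORgt-RORa-KO (0.47, SE 0.18, adjusted p = 0.044). It stood at 7.23 and 7.19 in RORgt-KO, near the highest control. Atp5c1, the gamma subunit of the rotating central stalk, fell in RORgt-Tbet-KO from 8.20 ± 0.26 (SD, n = 3) to 7.65 ± 0.06 (n = 2; -0.55, SE 0.19, adjusted p = 0.032); its peak also covers the start of Kin. In RORgt-RORa-KO Atp5d, a subunit of the central stalk, rose at a peak inside the gene 731 bp from an annotated start (0.63, SE 0.22, adjusted p = 0.025), and so did the promoter of Atp5md, a small membrane subunit, which it shares with Pdcd11 (0.58, SE 0.19, adjusted p = 0.023). The promoter of Atp5pb, the peripheral stalk subunit b, shared with Wdr77, fell by 0.56 (SE 0.19, adjusted p = 0.024). These calls lay near the threshold: both Atp5b calls were lost without any of 8 of the 10 libraries (highest adjusted p = 0.29 and 0.16 in the 2 comparisons), Atp5c1 without Control replicate 1 or 2 or either RORgt-Tbet-KO library (adjusted p = 0.17, 0.055, 0.14 and 0.23), Atp5d without Control replicate 1 or 2 or RORgt-RORa-KO replicate 3 (adjusted p = 0.081, 0.052 and 0.096), Atp5md without Control replicate 1 or 2 or RORgt-RORa-KO replicate 1 or 3 (adjusted p = 0.062, 0.10, 0.065 and 0.11) and Atp5pb without Control replicate 1 or 3 or RORgt-RORa-KO replicate 2 (adjusted p = 0.060, 0.096 and 0.076).

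Assembly factors of complex I also changed both ways. The Ndufaf8 promoter, shared with Tepsin, rose from 6.93, 6.91 and 7.31 in Control to 7.71 and 7.78 in RORgt-Tbet-KO (difference 0.70, SE 0.20, limma adjusted p = 0.014) and 7.76, 7.36 and 7.77 in RORgt-RORa-KO (0.58, SE 0.18, adjusted p = 0.016). Ndufaf4 fell from 8.29, 8.25 and 8.26 in Control to 7.64 in both RORgt-Tbet-KO libraries (-0.63, SE 0.19, adjusted p = 0.016) and to 7.86, 7.99 and 7.63 in RORgt-RORa-KO (-0.44, SE 0.17, adjusted p = 0.046). Its RORgt-KO libraries, at 8.36 and 7.88, lay on both sides of the controls, and the peak also covers the start of Gm46848. Ndufaf1 rose in RORgt-RORa-KO (0.68, SE 0.25, adjusted p = 0.036) from 5.60 ± 0.24 to 6.28 ± 0.19 (SD, n = 3 each). Both Ndufaf8 calls were lost without Control replicate 1 or 2 (adjusted p = 0.051 and 0.052 in RORgt-Tbet-KO, 0.066 and 0.064 in RORgt-RORa-KO), the first without either RORgt-Tbet-KO library (adjusted p = 0.096 and 0.14) and the second without RORgt-RORa-KO replicate 1 or 3 (adjusted p = 0.072 and 0.058). The Ndufaf4 call in RORgt-Tbet-KO was lost without either library of that group (adjusted p = 0.12 and 0.13), at an unchanged difference of -0.63, and that in RORgt-RORa-KO without any of 8 libraries (highest adjusted p = 0.14); Ndufaf1 was lost without any of 5 (highest adjusted p = 0.13).

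The promoters of Ndufa4 and Ndufb1 fell in RORgt-RORa-KO, both near the threshold and both shared with a second gene. Ndufa4, which was named for complex I and is now placed at complex IV, fell from 8.46, 8.46 and 8.30 in Control to 7.66, 8.18 and 8.03 (-0.45, SE 0.17, limma adjusted p = 0.039); its peak also covers the start of Phf14. In RORgt-Tbet-KO it stood at 8.04 and 7.79, below all controls, without passing (-0.49, adjusted p = 0.054). Ndufb1, a small accessory subunit of the membrane arm, fell from 7.80, 7.68 and 7.79 to 7.11, 7.03 and 7.69 (-0.48, SE 0.18, adjusted p = 0.045), and RORgt-RORa-KO replicate 3 lay within the control range. Its peak also covers the start of Cpsf2. The Ndufa4 call was lost without any of 7 of the 10 libraries (highest adjusted p = 0.23) and the Ndufb1 call without any of 9 (highest adjusted p = 0.17).

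**Figure D5:**
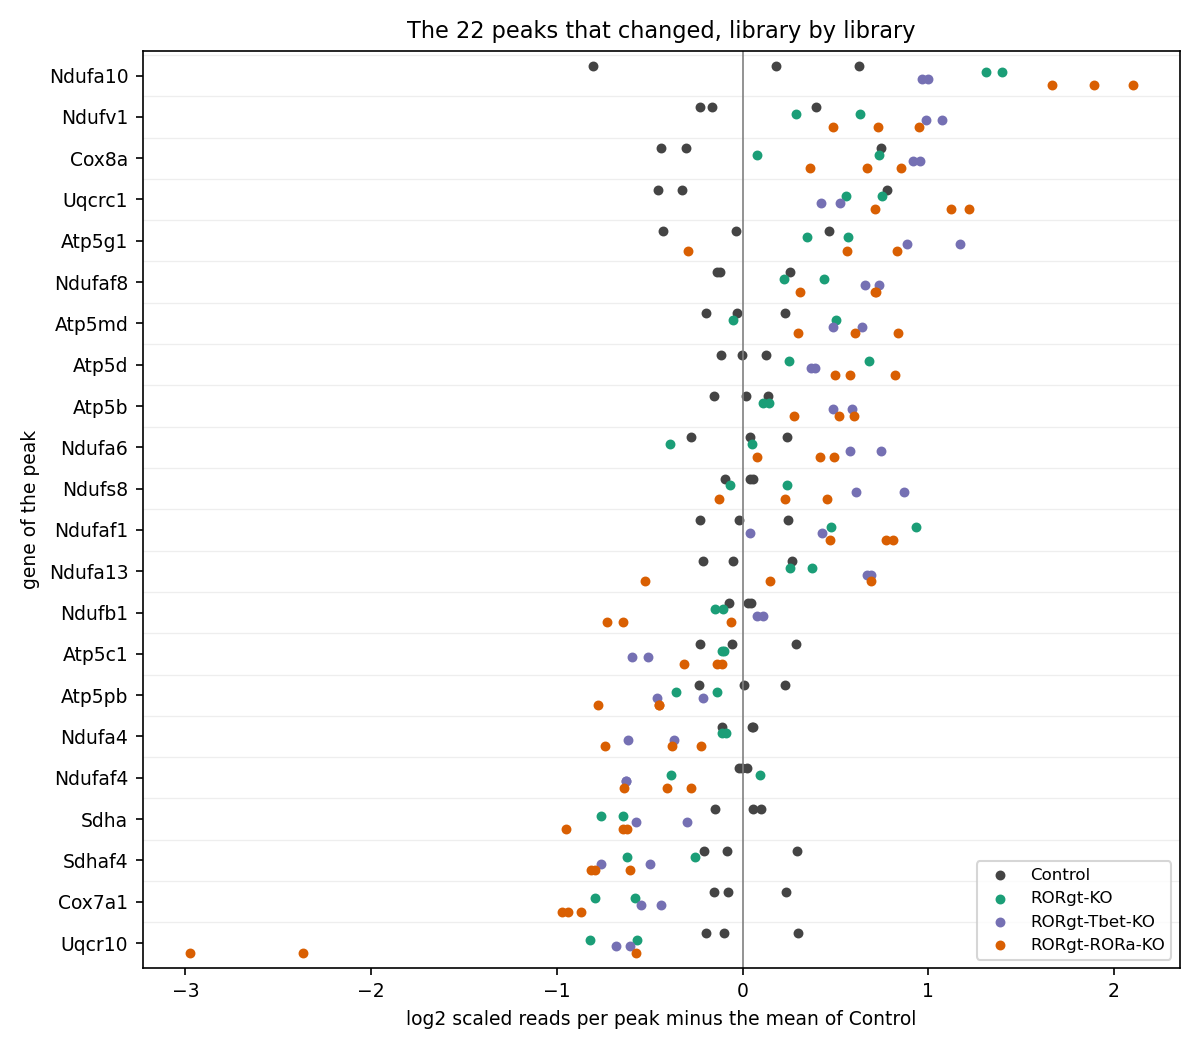
Log2 scaled reads per peak minus the mean of Control (x axis) in each library for the 22 member peaks that passed limma's test in a comparison (y axis, ordered by the summed difference in the double knockouts), coloured by group. The RORgt-RORa-KO means lie highest at Ndufa10 (1.89) and lowest near Uqcr10 (-1.97), and most other peaks lie within 1 log2 unit of Control.

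The 5 peaks called in both double knockouts (Atp5b, Ndufa10, Ndufaf4, Ndufaf8 and Ndufv1) had the same sign in both, but these comparisons share their controls. The 2 largest differences, at Ndufa10 and near Uqcr10, lay away from promoters. Of 15 members away from a gene end 4 changed (inside Ndufa10, Sdha and Atp5d and near Uqcr10), and of 85 at a gene end 18. These are 26.7% and 21.2%, against 39.7% of all peaks and 21.2% of gene-end peaks. The share of all peaks includes the gene-end peaks, so it is not the share of peaks away from gene ends. In each of the 10 genes with 2 member peaks, 1 lay at a gene end and 1 elsewhere, and the gene-end peak of Ndufa10, Sdha and Uqcr10 did not pass; the difference between the peaks of a gene was not tested. The median SD within groups was 0.21 for gene-end members and 0.36 for the others.

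Other genes of mitochondrial energy metabolism were counted in the same fit, with peaks given by the same 5 kb rule. Electron carriers and entry points (8 of 9 genes with a peak, 11 peaks) had 2 higher and 0 lower peaks (RORgt-KO), 3 and 0 (RORgt-Tbet-KO), then 4 and 2 (RORgt-RORa-KO). The shares changed were 18.2%, 27.3% and 54.5%, against 12.3%, 22.6% and 31.2% of all peaks. Cytochrome c (Cycs) rose at a peak within 5 kb of the gene (chr6:50560820-50561099) by 1.69, 2.02 and 2.26 in the 3 knockouts. The SE was 0.51, 0.51 and 0.46 (limma adjusted p = 0.027, 0.0048 and 0.00034). This peak was low, with mean log2 levels of 2.86 in Control and 4.55, 4.89 and 5.12 in the knockouts. The Cycs promoter peak, at 7.85 in Control, fell by 0.52 (SE 0.18, limma adjusted p = 0.027) in RORgt-RORa-KO. The promoter of Cyc1, the cytochrome subunit of complex III that the symbol rule leaves out, rose by 0.86 (SE 0.25, adjusted p = 0.012) in RORgt-Tbet-KO and 0.59 (SE 0.22, adjusted p = 0.042) in RORgt-RORa-KO. Further assembly and expression factors (36 genes, 47 peaks) had 1 higher and 2 lower, 0 and 2, and 4 and 4 (6.38%, 4.26% and 17.0% changed).

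The citric acid cycle and pyruvate dehydrogenase list (17 genes, 25 peaks) had 2 higher and 1 lower peaks, 1 and 3, and 3 and 2 in the same order of groups. Suclg2, a subunit of succinyl-CoA ligase, had a peak inside the gene (chr6:95614446-95615207) that stood at 4.80 in Control, 6.08 in RORgt-KO, 3.71 in RORgt-Tbet-KO and 6.91 in RORgt-RORa-KO. The double knockouts differed there by 3.20 (SE 0.39, limma adjusted p = 2.5e-06), where no member peak passed. The gene-end peak of Suclg2 (chr6:95718044-95719223), at 9.10 in Control, was instead lower in both double knockouts. It differed by -0.70 in RORgt-Tbet-KO and by -0.70 in RORgt-RORa-KO (limma adjusted p = 0.0048 and 0.0012). Mitochondrial biogenesis genes (15 genes, 30 peaks) had 1 and 2, 2 and 3, and 2 and 6. Here 10.0%, 16.7% and 26.7% of the peaks changed, below the shares of all peaks. A peak within 5 kb of Tfam, the mitochondrial transcription factor (chr10:71220202-71220510), differed by -1.62, -2.25 and -3.21 (SE 0.39, 0.39 and 0.35; adjusted p = 0.0052, 0.00012 and 5.0e-08). Ppargc1a, a coactivator of mitochondrial biogenesis, had 1 lower peak in RORgt-KO, 2 in RORgt-Tbet-KO and 4 in RORgt-RORa-KO, all inside the gene. In the same list a peak inside Ppargc1b rose by 1.30 in RORgt-KO and 1.32 in RORgt-RORa-KO (limma adjusted p = 0.0064 and 0.00071). Another inside Gabpb1 rose by 1.32 in RORgt-Tbet-KO and 1.00 in RORgt-RORa-KO (limma adjusted p = 0.014 and 0.026). These examples were chosen after their values were seen.

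Mitochondrial ribosome genes (74 genes, 92 peaks, 75 of them at a gene end) had 1 higher and 1 lower, 8 and 3, and 5 and 3 (2.17%, 12.0% and 8.70% changed). Glycolysis genes (20 of 21 genes, 48 peaks, 21 at a gene end) had 2 and 2, 6 and 3, and 7 and 4 (8.33%, 18.8% and 22.9%). Slc2a1, the glucose transporter, rose at a peak inside the gene (chr4:119125883-119126324) by 1.08, 1.51 and 1.36 in the 3 knockouts (SE 0.35, 0.35 and 0.31; limma adjusted p = 0.039, 0.0024 and 0.0013). A peak inside Pfkp of the same list (chr13:6646973-6647969) went the other way. It differed by -0.60, -0.98 and -1.06 in the 3 knockouts (limma adjusted p = 0.022, 0.00018 and 6.6e-06). Other peaks inside Pfkp moved both ways. In RORgt-Tbet-KO the differences were 0.92 at chr13:6624110-6624933 and -0.75 at chr13:6642413-6642764 (limma adjusted p = 0.0057 and 0.037). In RORgt-RORa-KO the peak at chr13:6633128-6634297 rose by 0.46 (limma adjusted p = 0.030). Both examples were chosen after their values were seen. Lists differ in the share of peaks at gene ends, and the calls of a list were read only beside 12.3%, 22.6% and 31.2% of all peaks in the 3 comparisons.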

How the data were processed

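ATAC-seq was measured in 10 libraries of 4 groups. Per the submitters' processing notes, the authors used Trim Galore 0.62, Bowtie2 2.3.5.1, SAMtools and MACS2 with GRCm38; the treatment of reads with several matches was not stated. Each deposited value is a scaled count of reads in a peak, as log2. Raised to the power of 2, all non-empty values were whole multiples of 1 step per library (tolerance 0.01), from which reads were recovered.

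The 11 peaks on chromosome Y were left out. Genes and promoters came from RefSeq (GRCm38.p6), whose gene table has no strand. limma 3.58.1 in R 4.3.3 was fitted to the deposited log2 values of 36251 peaks with a mean-variance trend and 4 group means (6 residual and 22.5 prior degrees of freedom), with Benjamini-Hochberg adjustment in each of 6 contrasts; each adjusted p and moderated SE is from limma. The fit was tested on simulated data.

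Members and lists were chosen with earlier results of these data known. Named peaks were those past the threshold, the highest and lowest of each role and the tissue isoforms (no gene had 3 or more member peaks); promoters were shown for 3 genes by smallest adjusted p and 3 by level. Alternatives covered scaling, trend, weights, filter, pseudocount, voom, a replicate block, other member rules and leaving out each library; a term for chromosome Y reads was added after the data were seen. The 19 pseudogenes with these symbol starts were not members.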

Additional observations from a re-analysis of the deposited data

How the results depend on the processing

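Each of the 29 calls was recomputed under 22 alternatives (21 near Uqcr10). All kept their sign, and 3 stayed past the threshold in each alternative run for them: Cox7a1, Ndufa10 and the peak near Uqcr10, all in RORgt-RORa-KO. Of 637 values under an alternative, 489 passed and 148 did not. Counts below are higher and lower members, beside the reported 1 and 1 (RORgt-KO), 9 and 2 (RORgt-Tbet-KO), 8 and 8 (RORgt-RORa-KO) and 11 (F test). The causes of these shifts were not tested.

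With members to 50 kb (124 peaks) the counts were 3 and 3, 11 and 4, and 13 and 17, with 1 lower in RORgt-RORa-KO minus RORgt-KO, 3 lower in RORgt-RORa-KO minus RORgt-Tbet-KO and 23 in the F test. Without the trend RORgt-KO lost its lower call (0), RORgt-Tbet-KO had 1 and 0, RORgt-RORa-KO 4 lower and the F test 3. With voom RORgt-Tbet-KO had 8 lower, RORgt-RORa-KO 13 higher, a median difference of 0.067 in RORgt-RORa-KO, 1 higher member in RORgt-Tbet-KO minus RORgt-KO and in RORgt-RORa-KO minus RORgt-Tbet-KO, and 18 in the F test. With library weights RORgt-Tbet-KO had 10 lower, RORgt-Tbet-KO minus RORgt-KO 3 and 1, RORgt-RORa-KO minus RORgt-Tbet-KO 1 and 5, and the F test 21. With only the 2 groups compared the counts were 6 lower in RORgt-Tbet-KO, 5 and 5 in RORgt-RORa-KO, 4 higher in RORgt-Tbet-KO minus RORgt-KO and 1 higher in RORgt-RORa-KO minus RORgt-Tbet-KO. The chromosome Y term gave 4 lower in RORgt-Tbet-KO, 1 higher in RORgt-Tbet-KO minus RORgt-KO and 3 lower in RORgt-RORa-KO minus RORgt-Tbet-KO. In RORgt-Tbet-KO quantile normalization gave 5 lower and centring on the median of all peaks 1 lower, and a pseudocount of 8 gave 1 higher against RORgt-KO. Subunits without assembly factors had 1 lower in RORgt-Tbet-KO, members with a single nearest gene 1 lower there and 5 lower in RORgt-RORa-KO, and gene-end members 0 higher in RORgt-KO.

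Same-numbered libraries showed little shared variation (r from -0.121 to 0.143, 1 of 13 pairs over 0.1). Of 10 libraries, 3 correlated best with their own number. In groups of 2 libraries the deviations from the group mean mirror each other, so this check cannot exclude pairing by number. A replicate block gave 2 and 2 in RORgt-KO, 6 lower in RORgt-Tbet-KO, 3 lower in RORgt-RORa-KO minus RORgt-Tbet-KO, 1 higher in RORgt-Tbet-KO minus RORgt-KO and 19 in the F test.

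Leaving out each library gave, against Control, 0 to 3 higher and 0 to 1 lower (RORgt-KO), 1 to 11 and 0 to 7 (RORgt-Tbet-KO), 1 to 12 and 3 to 8 (RORgt-RORa-KO); 0 to 1 higher in RORgt-Tbet-KO minus RORgt-KO, 0 to 1 lower in RORgt-RORa-KO minus RORgt-KO, 0 to 4 lower in RORgt-RORa-KO minus RORgt-Tbet-KO, and 4 to 16 in the F test. Where a group was left with 1 library, that library was assumed to vary like the other groups. With 2 or 3 libraries a group, the median 95% interval of a difference from Control reached 0.41 to 0.46 on the log2 scale to either side.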
